A study of Mus musculus with 6 samples.

Results

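Chemokines, cytokines, the NF-kB factors that switch many of them on, and complement proteins were followed as a list of 42 genes in clones of the mouse fibroblast line NIH3T3. All array probes whose gene symbol in the platform annotation was one of these names were taken. The list itself was chosen with earlier results of these data known, so its comparisons with all genes are descriptive only. Of the 42 genes, 38 had a probe, 65 probes in all, among the 45281 probes and 19057 named genes of the array. The other 4, Cxcl5, Il1rl1, Nfkb1 and C3, had no probe under their symbol and were not analysed here.

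NIH3T3 is an immortalized line that was derived from embryonic fibroblasts of NIH Swiss mice. Human FEAT, also called METTL13 or EEF1AKNMT, encodes a methyltransferase of the elongation factor eEF1A. Its coding frame was put into pEF-DEST51, where the elongation factor 1alpha promoter drives it, and stable transfectants that grew under blasticidin S (10 µg/ml, 7 days) gave 3 clones with abundant FEAT protein, named FEAT 3, FEAT 15 and FEAT 20. The other arm, titled ΔccdB and named control 1, control 2 and control 3, was stably transfected with the same vector after removal of its ccdB gene, and the labels do not give how these clones were selected. Each clone is a separate stable line read on 1 one-colour Illumina array, so the spread within a group is the spread between clones, and the number of arrays limits the precision.

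Chemokines are small secreted proteins that draw leukocytes along a gradient. Fibroblasts make several of them, together with colony-stimulating factors and cytokines of the interleukin 6 family, when interleukin 1, TNF or microbial products activate NF-kB. NF-kB dimers are held in the cytoplasm by inhibitors such as the product of Nfkbia, and once released they bind short kappa B sites in promoters, including those of Nfkbia and Tnfaip3, whose products shut the signal off. Complement is a cascade of serum proteins, made mainly in liver and also in stromal cells, that marks surfaces for clearance.

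The promoters of 6 genes of the list that hold an NF-kB match are shown, as RefSeq gives them for GRCm38.p6. They run 5′ to 3′ on the strand of the gene, with bases counted back from the annotated start at -1. Capitals mark letters that match the NF-kB consensus on either strand. Cxcl1, Csf1 and Nfkbia were measured above background in every clone, whereas Cxcl2, Cxcl10 and Il6 were at or near background in most.
Cxcl1 (chr5:90891125-90891244, plus strand, -120 to -1): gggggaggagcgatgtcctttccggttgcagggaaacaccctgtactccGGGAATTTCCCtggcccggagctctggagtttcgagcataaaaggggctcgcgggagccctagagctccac
Cxcl2 (chr5:90903779-90903898, plus strand, -120 to -1): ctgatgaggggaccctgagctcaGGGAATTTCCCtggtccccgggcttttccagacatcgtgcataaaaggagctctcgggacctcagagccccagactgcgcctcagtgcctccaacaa
Cxcl10 (chr5:92348949-92349059, minus strand, -170 to -60): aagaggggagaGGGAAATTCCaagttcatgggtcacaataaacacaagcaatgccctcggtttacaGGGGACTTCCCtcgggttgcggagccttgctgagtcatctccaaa
Il6 (chr5:30013014-30013113, plus strand, -100 to -1): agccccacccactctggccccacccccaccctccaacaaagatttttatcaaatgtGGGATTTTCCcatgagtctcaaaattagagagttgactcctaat
Csf1 (chr3:107760549-107760639, minus strand, -170 to -80): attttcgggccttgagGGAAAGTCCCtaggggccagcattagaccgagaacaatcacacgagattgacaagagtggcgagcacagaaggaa
Nfkbia (chr12:55492648-55492747, minus strand, -100 to -1): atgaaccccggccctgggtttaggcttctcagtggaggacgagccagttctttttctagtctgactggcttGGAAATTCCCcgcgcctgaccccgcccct

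Of the 42 genes, 30 matched a promoter window by symbol, and 11 of these (36.7%) held the NF-kB consensus within the 250 bases before the start, on either strand, against 8.23% of the 26994 genes in the table. The AP-1 letters TGANTCA, read on both strands, were in 9 of the 30, against 7.82%. The letters TATAAA on the strand of the gene were also in 9 of the 30, against 8.94%. In Cxcl1 and Cxcl2 the capitals hold a pair of overlapping matches, 1 on each strand. The run of capitals in Cxcl1 is the same in Cxcl2, and these are neighbours with no gene between them in the RefSeq table. The window of Ptges held no NF-kB or AP-1 match, and the AP-1 letters were in 1 of 2 windows of Il11.

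Levels below are the linear intensities of the deposited value table, in which each array has a mean of 680. Background is still in them. It ends at a limit between 90.0 and 106.5 on these scaled values, set for each array from the lower side of its intensities, so a reading near 100 carries little or no signal. Log2 differences, FEAT minus control, come from background-corrected and quantile-normalized values and are larger than the ratio of the intensities for dim genes. Tests are limma's two-sided moderated test on 3 against 3 clones, with Benjamini-Hochberg adjustment over the 27169 brightest probes (60%), and a gene is read from its brightest probe.

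Between 38.2% and 42.4% of probes lay above the limit on each array. Of 10 fibroblast markers, 8 were above it on all 6 arrays, among them Col1a1, Col1a2, Vim and Thy1. Lum was below it on all 6. Of 8 markers of blood cells with a probe, 6 were below it on all 6 arrays, Ptprc, Adgre1 and Csf1r among them, and only Lyz2 was above it on all 6. The summed level of the blood list was 790 to 1246 in control and 880 to 976 in FEAT clones. The 3 adipocyte markers were below the limit throughout, as were 3 of 5 endothelial, 2 of 5 epithelial and 2 of 4 muscle markers. The epithelial genes Cdh1 and Krt14 and the muscle gene Des were above it on all 6, and no marker of these lists was called. The summed level of the epithelial list was high, 16329 to 24352 in control and 19133 to 28515 in FEAT clones. Epcam and Krt18 were below the limit on all 6 arrays, so this sum rests on the other genes of that list. That of the fibroblast list was 36696 to 39277 and 40568 to 47463. The 5 mouse Eef1aknmt probes gave log2 differences from -0.59 to 0.03, none of them called, and they need not read the human insert.

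Of the 38 genes, 17 were above the limit on all 3 arrays of at least 1 group on their brightest probe and are described by clone. Another 8 were above it on some arrays only, and 13 were below it on all 6. Of the 38, 29 passed the filter on low values and were tested, and 9 did not. None of the 29 passed the threshold (limma, adjusted p under 0.05), against 0.21% of all 13309 genes tested and 0.169% of probes (0.11% higher and 0.0589% lower). The smallest adjusted p was 0.0927, for Cxcl1. At an unadjusted p under 0.05 there were 7 genes of the 29, against 10.2% of all genes: Cxcl1, Il11, Csf1, Ptgs2, Ptges and Vcam1 higher in FEAT clones (5.21% of all genes were higher at this level) and Ccl8 lower (4.94%). The median log2 difference was 0.16 over the 29 genes and 0.0076 over all genes, and 20 of the 29 were positive, against 51.7%. With no filter, the median over all 38 genes was 0.048, and over the same 29 genes it was 0.095 without background correction and 0.097 without FEAT 15. In bulk RNA, fewer cells that express a gene and less RNA per cell cannot be told apart.

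**Figure D1:**
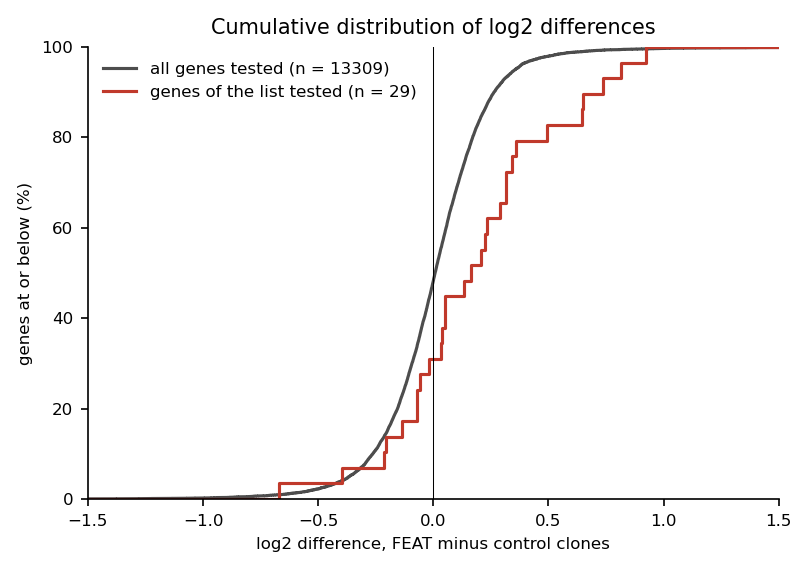
Cumulative distribution of log2 differences (x axis, FEAT minus control clones) over the 29 genes of the list that were tested (red) and all 13309 genes tested (grey), with the percentage of genes at or below each value on the y axis. The red line lies to the right of the grey one over most of its range, with medians of 0.16 and 0.0076.

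The CXC chemokine Cxcl1, which draws neutrophils through the receptor Cxcr2, separated the groups most evenly. Its intensity was 1197 in control 1, 1303 in control 2 and 1261 in control 3, and 1924 in FEAT 3, 1995 in FEAT 15 and 2057 in FEAT 20. Every FEAT clone lay above every control clone, and clones of a group differed little from each other. The means were 1254 ± 53.4 and 1992 ± 66.5 (SD, n = 3 clones each), and the log2 difference was 0.65 (95% interval 0.38 to 0.92, SE 0.12, limma adjusted p = 0.0927), a 1.57-fold difference that did not pass. It passed under 4 of 9 other processing settings: without background correction (adjusted p = 0.0361), with a normexp offset of 50 (0.0376), on the deposited value table alone (0.0236) and with a trended, robust variance (0.0461). Over those 9 settings the adjusted p ran from 0.0236 to 0.131, and with 1 clone left out from 0.0682 to 0.400, while the log2 difference stayed between 0.61 and 0.69. Its spread within groups, an SD of 0.052 on the log2 scale, was smaller than that of all but 1.54% of the 9213 genes above the limit on 3 arrays of a group.

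Of the other CXC chemokines, Cxcl2 was below the limit on all 6 arrays on both of its probes, with 67.1 to 75.4 on the brighter. The run of capitals that its promoter shares with that of Cxcl1 starts at -97, and at -71 in Cxcl1. Cxcl14, a chemokine of epithelia and stroma, was also below it on both probes. Cxcl10, an interferon-inducible chemokine, was above the limit in control 2 alone, at 138, with 76.8 to 92.3 in the other clones. Its other probe was below the limit on all 6 arrays and read lowest in control 2, at 66.3. Cxcl12, which retains stem cells and leukocytes through Cxcr4, had 5 probes, and the brightest was above the limit in control 1, FEAT 3 and FEAT 20, at 100.4, 119.9 and 103.2. Its log2 difference of 0.21 (adjusted p = 0.774) was within the spread of the clones.

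Among the CC chemokines, the monocyte attractants Ccl2 and Ccl7, neighbours with no gene between them in the RefSeq table, were both highest in FEAT 15. Ccl2 read 184, 205 and 209 in control 1, control 2 and control 3, and 152, 425 and 111 in FEAT 3, FEAT 15 and FEAT 20. The control clones were close together, and 2 of the FEAT clones lay below all of them while FEAT 15 lay far above. Its log2 difference was -0.14 (SE 0.44, adjusted p = 0.956), with an interval from -1.102 to 0.83. Without FEAT 15 it was -0.81 and without FEAT 20 it was 0.35. The within-group SD of Ccl2, 0.87 on the log2 scale, exceeded that of 99.5% of the 9213 genes.

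Ccl7 read 5232, 6257 and 4494 in control 1, control 2 and control 3, and 5878, 10830.4 and 4491 in FEAT 3, FEAT 15 and FEAT 20. FEAT 15 stood apart from the other 5 clones, and the groups overlapped. The log2 difference was 0.31 (SE 0.27, adjusted p = 0.778), and -0.04 without FEAT 15. The second Ccl7 probe also read highest in FEAT 15, at 4615, with 1798 to 2769 in the other clones.

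Ccl8, a chemokine of the same gene cluster, read lower in FEAT clones on average. Its intensity was 165, 136 and 191 in control 1, control 2 and control 3, and 113, 147 and 99.5 in FEAT 3, FEAT 15 and FEAT 20. The groups overlapped, since FEAT 15 lay above control 2. The log2 difference was -0.67 (95% interval -1.17 to -0.18, SE 0.23, adjusted p = 0.385), the lowest of the 29 genes tested.

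Ccl9, a myeloid cell attractant, read 587, 779 and 447 in the control clones and 405, 687 and 516 in FEAT 3, FEAT 15 and FEAT 20. Control 2 was highest and FEAT 3 lowest, and the log2 difference of -0.21 (adjusted p = 0.836) was within the spread of the clones. Cx3cl1, a chemokine made as a membrane-bound protein, was nearly level in the control clones, at 147, 150 and 154, and split in the FEAT clones, at 193, 136 and 201. FEAT 15 was the lowest of the 6 clones here, and the log2 difference was 0.29 (adjusted p = 0.695). It was 0.52 without FEAT 15, 0.15 without FEAT 20 and 0.19 without FEAT 3. Ccl5, a T cell attractant, was above the limit in control 2 alone, at 127, and Ccl20 in FEAT 20 alone, at 99.4. The other Ccl20 probe was below the limit in all 6 clones, with 62.9 in FEAT 20.

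**Figure D2:**
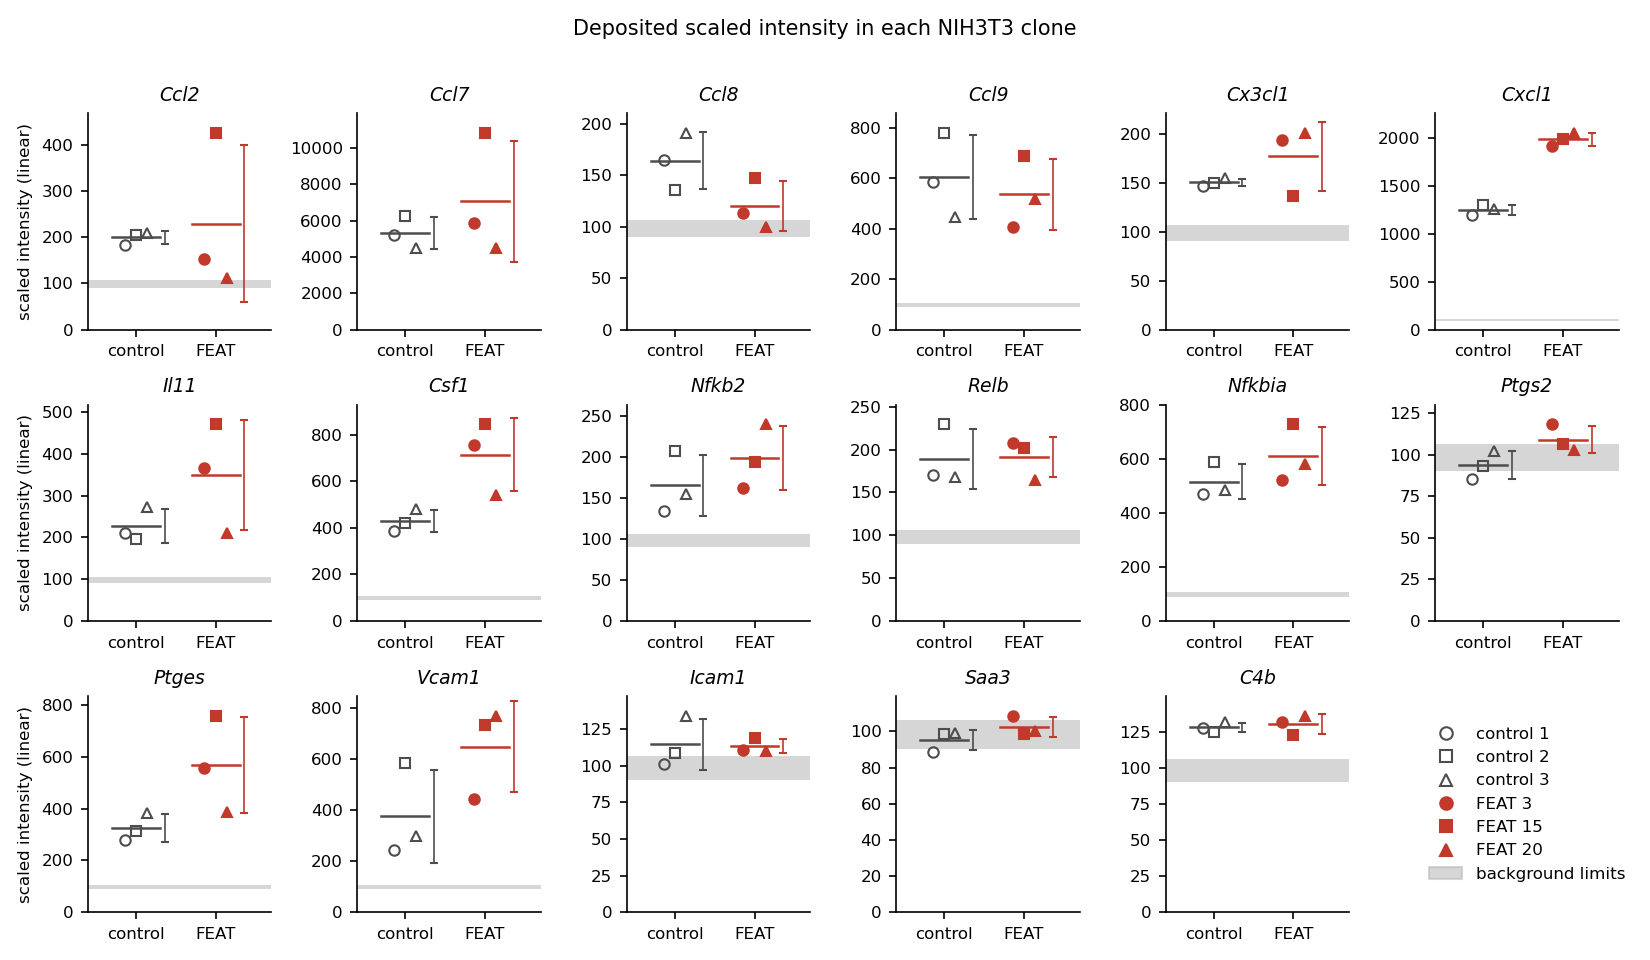
Scaled intensity (y axis, linear, from 0) of the brightest probe of each of the 17 genes described by clone, in the 3 control clones (open grey) and the 3 FEAT clones (red). Horizontal lines are group means, error bars are 1 SD (n = 3), and the grey band is the range of the background limits of the 6 arrays. Cxcl1 reads 1197 to 1303 in control clones and 1924 to 2057 in FEAT clones, whereas Ccl2 and Ccl7 are highest in FEAT 15, at 425 and 10830.4.

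Of the cytokines and growth factors, Csf1, the survival and growth factor of macrophages, had the clearest separation. It read 387, 422 and 481 in control 1, control 2 and control 3, and 756, 844 and 539 in FEAT 3, FEAT 15 and FEAT 20. All FEAT clones lay above all control clones, with FEAT 20 nearest to them. The means were 430 ± 47.5 and 713 ± 157 (SD, n = 3 each), a 1.67-fold difference (log2 0.74, SE 0.19, adjusted p = 0.209). Without FEAT 20 the log2 difference was 0.95 and passed (adjusted p = 0.0487). In the other omissions of a clone and in the 9 processing settings it did not pass, with adjusted p from 0.133 to 0.578. The kappa B letters shown above for Csf1 lie between -154 and -145.

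Il11, a member of the interleukin 6 family that is known as a product of fibroblasts, read 211, 196 and 273 in control 1, control 2 and control 3. It read 366, 471 and 210.0 in FEAT 3, FEAT 15 and FEAT 20. FEAT 3 and FEAT 15 lay above all control clones, and FEAT 20 lay among them. The log2 difference was 0.65 (SE 0.28, adjusted p = 0.530), 1.02 without FEAT 20 (adjusted p = 0.0941) and 0.38 without FEAT 15 (adjusted p = 0.783).

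The classical inflammatory cytokines gave little or no signal. Il1a, Il1b, Tnf and Csf2 were below the limit on all 6 arrays on every probe and were not tested. Il33, an alarmin of stromal nuclei, and Lif, a cytokine that signals through gp130, were also below it on all 6 arrays. Il6 was above the limit in FEAT 20 alone, at 93.5, with 73.7 to 86.6 in the other clones. Csf3, the granulocyte growth factor, was above it on 2 arrays of each group, at 98.8 and 118 in control 1 and control 2 and at 96.6 and 95.4 in FEAT 15 and FEAT 20 (FEAT 3, with the highest limit, read 104.8 and was below it), with a log2 difference of -0.07 (adjusted p = 0.932). Of the cytokine receptors of the list, Il13ra2, a decoy receptor of interleukin 13, was below the limit on all 6 arrays. The 13 genes below the limit on all arrays read 54.7 to 99.98 on their brightest probes.

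None of the 4 NF-kB factors and inhibitors tested passed, and their groups overlapped in each. Nfkb2, which encodes the precursor of p52 in the noncanonical branch, read 135, 207 and 156 in control 1, control 2 and control 3, and 163, 194 and 240.2 in FEAT 3, FEAT 15 and FEAT 20. The groups overlapped through control 2, and the log2 difference was 0.34 (SE 0.22, adjusted p = 0.699). With 1 clone left out it ran from 0.15, without FEAT 20, to 0.56, without control 2, and was 0.16 without control 1 and 0.51 without FEAT 3. Relb, the usual partner of p52, read 169.9, 229 and 168 in the control clones and 208, 202 and 165 in FEAT 3, FEAT 15 and FEAT 20. Control 2 was its highest clone and FEAT 20 its lowest, and the log2 difference was 0.04 (95% interval -0.36 to 0.43, adjusted p = 0.973).

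Nfkbia, the inhibitor that is itself an early NF-kB target, read 472, 591 and 484 in control 1, control 2 and control 3, and 521, 729 and 581 in FEAT 3, FEAT 15 and FEAT 20. FEAT 15 was highest, the groups overlapped, and the log2 difference was 0.23 (SE 0.16, adjusted p = 0.720), and 0.097 without FEAT 15. Tnfaip3, the ubiquitin-editing enzyme A20, was above the limit in control 2, FEAT 15 and FEAT 20, at 108, 101 and 119, and read 74.0 and 75.4 in control 1 and control 3 and 91.4 in FEAT 3. Its log2 difference was 0.49 (SE 0.27, adjusted p = 0.632). In all 4 of these genes control 2 was the highest of the control clones. It was so in 7 of the 17 genes described by clone (41.2%), near the 34.4% of the 9213 genes above the limit on 3 arrays of a group. Tnfaip3 is in neither set.

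The enzymes of prostaglandin E2 synthesis were next. Ptges, which makes prostaglandin E2 from the product of cyclooxygenase, read 279, 315 and 383 in control 1, control 2 and control 3, and 557, 757 and 386 in FEAT 3, FEAT 15 and FEAT 20. FEAT 3 and FEAT 15 stood above the control clones, and FEAT 20 lay level with control 3. The log2 difference was 0.82 (95% interval 0.30 to 1.34, SE 0.24, adjusted p = 0.277), a 1.76-fold difference, and 0.50 on the other probe (adjusted p = 0.420). Without FEAT 20 the brightest probe gave 1.097 (adjusted p = 0.0574).

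Ptgs2, the inducible cyclooxygenase that acts one step earlier, was close to background. It was above the limit in control 3 and in all FEAT clones, with 85.4, 93.2 and 102.4 in control 1, control 2 and control 3, and 118, 106 and 102.7 in FEAT 3, FEAT 15 and FEAT 20. Its log2 difference was 0.36 (SE 0.14, adjusted p = 0.468), and its other probe was below the limit on all arrays. Without background correction the log2 difference was 0.21. Nos2, the inducible nitric oxide synthase, was above the limit on 1 array of each group, with 89.8 to 98.9 over the 6 clones.

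Vcam1, a ligand of leukocyte integrins on activated endothelium and stroma, had the largest log2 difference of the 29 genes. It read 245, 585 and 299 in control 1, control 2 and control 3, and 444, 734 and 771 in FEAT 3, FEAT 15 and FEAT 20. Control 2 lay above FEAT 3, so the groups overlapped. The log2 difference was 0.92 (95% interval 0.22 to 1.62, SE 0.32, adjusted p = 0.397), a 1.89-fold difference. Without control 2 it was 1.34 and passed (adjusted p = 0.0311). In the other omissions of a clone it ran from 0.63 to 1.16 and did not pass. The other 3 Vcam1 probes were below the limit on all 6 arrays, and averaging in the 1 of them that was tested gave 0.48. Icam1, which is related in function, read 101, 108 and 134 in the control clones and 110.5, 119 and 110.2 in the FEAT clones, a log2 difference of -0.02 with an interval from -0.40 to 0.36 (adjusted p = 0.986).

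**Figure D3:**
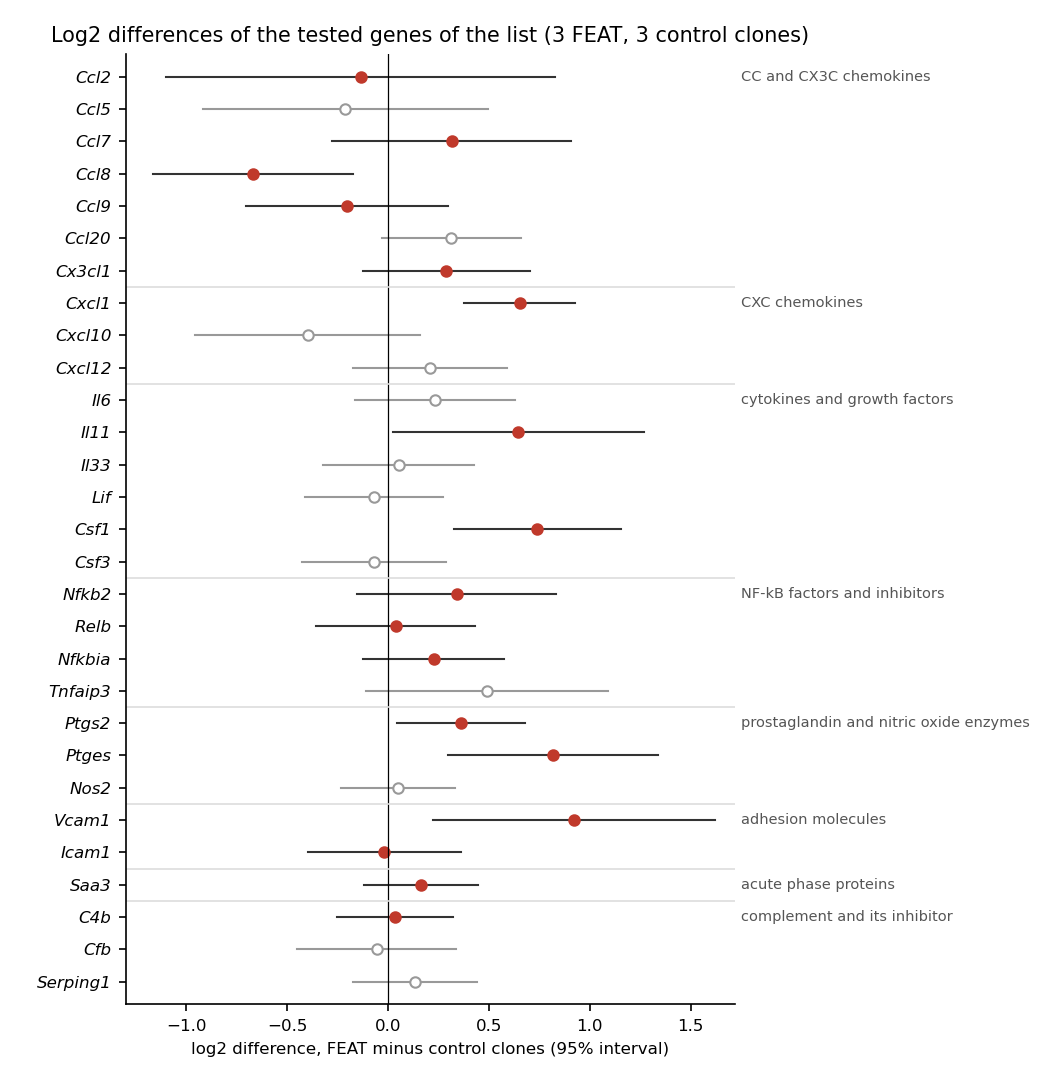
Log2 difference (x axis, FEAT minus control clones) with its 95% interval for the 29 genes of the list that were tested, in order of role. Filled red points are the 17 genes above the background limit on all 3 arrays of a group, open grey points the other 12. The interval of Cxcl1, from 0.38 to 0.92, is narrower than that of Vcam1, from 0.22 to 1.62, and that of Ccl2 runs from -1.102 to 0.83.

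The acute phase and complement genes of the list that had a probe were dim. Saa3, an acute phase protein that stromal cells can make, was above the limit in control 3 and in all FEAT clones. It read 88.8, 98.3 and 98.8 in control 1, control 2 and control 3, and 108.6, 98.7 and 100.03 in FEAT 3, FEAT 15 and FEAT 20. Its groups did not overlap after normalization and did so on the intensities, with a log2 difference of 0.16 (adjusted p = 0.755), and 0.095 without background correction. Lcn2, a siderophore-binding protein, was below the limit on all 6 arrays.

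C4b, a component of the classical complement pathway, was steady on its brightest probe, at 127.5, 125 and 132 in the control clones and 132, 123 and 136 in the FEAT clones. The log2 difference was 0.03 (95% interval -0.25 to 0.32, adjusted p = 0.964). Another C4b probe, above the limit on 3 arrays, varied more, from 83.3 to 109 in control and from 85.6 to 115 in FEAT clones. Its log2 difference was 0.11 (limma adjusted p = 0.913), and the remaining probe was below the limit on all 6 arrays. C4b has a close copy in the mouse genome, and which copy the probes read is uncertain. C1ra, a protease of the first complement component, Cfb, of the alternative pathway, and the C1 inhibitor gene Serping1 were below the limit on all 6 arrays and on every probe.

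After normalization, 4 of the 29 genes had groups that did not overlap, Cxcl1, Csf1, Ptgs2 and Saa3, all higher in FEAT clones. This share, 13.8%, lies near the 15.2% of all genes tested (7.99% higher and 7.21% lower). Ptgs2 and Saa3 were each close to the background limit in both groups. With a clone left out, groups separate more easily. Without control 2 the number was 10 (34.5%, against 28% of all genes) and without FEAT 15 it was 9 (31%, against 25.1%). It was 5 without control 1 (17.2%, against 23.8%), and 6 (20.7%) without control 3, FEAT 3 or FEAT 20, against 26.8%, 24.4% and 25.1% of all genes.

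The clones of a group differed more in these genes than in most. The median within-group SD of the 17 genes described by clone was 0.29 on the log2 scale, against 0.17 over the 9213 genes above the limit on 3 arrays of a group. FEAT 15 was the highest of the 6 clones in 6 of the 17 genes, against 14.5% of the 9213, and the highest FEAT clone in 9 (52.9%, against 31.6%). Control 1 was the lowest clone in 9 of the 17 genes, against 20.6%, and the highest in none. Ptgs2 and Saa3 are among these 9. Both entered the 17 only through their FEAT arrays, being above the limit on 1 control array, and both count in the medians that follow. Relative to the mean of the 6 clones, the median of the 17 genes was -0.22, -0.04 and -0.12 in control 1, control 2 and control 3, and 0.05, 0.28 and 0.0041 in FEAT 3, FEAT 15 and FEAT 20. Over the 9213 genes these medians lay between -0.0093 and 0.0071.

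Ccl2, Ccl7, Ccl8, Csf1, Il11 and Ptges had the same order among FEAT clones, FEAT 15 first, FEAT 3 next and FEAT 20 last. Control 3 was the highest control clone in each of these but Ccl7, where control 2 was. In Nfkb2 and Vcam1 the highest FEAT clone was FEAT 20 and the highest control clone control 2. On the normalized values Cxcl1 had neither order, with FEAT clones within 0.035 of each other on the log2 scale. On the intensities its highest clones were FEAT 20 and control 2, as in Nfkb2 and Vcam1. These orders were picked out from the values themselves, and how often they occur over all genes was not counted.

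**Figure D4:**
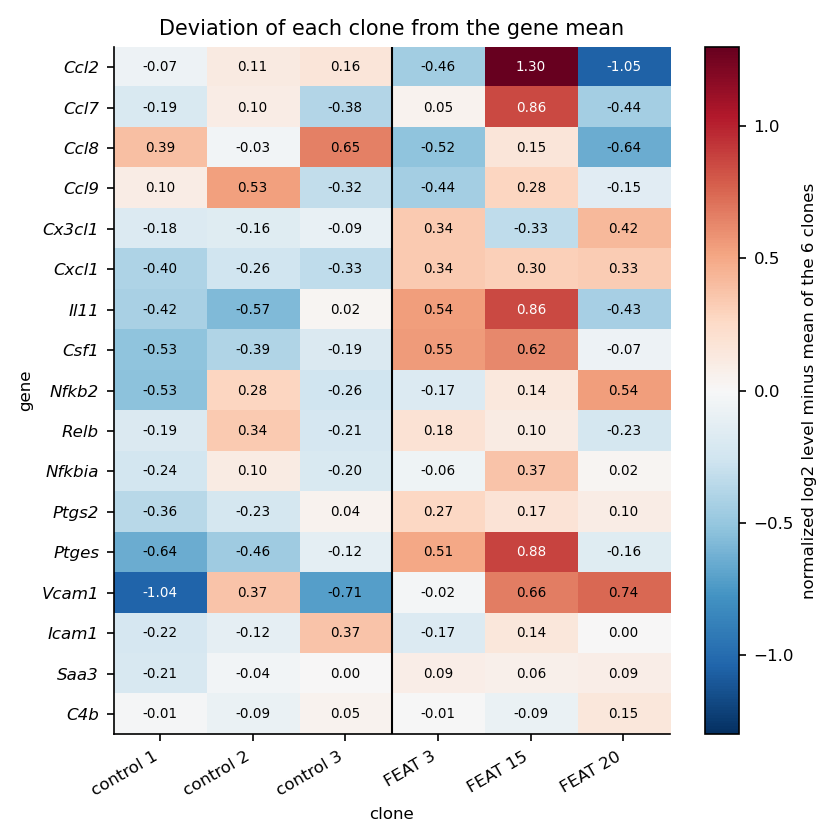
Normalized log2 level of each clone (x axis) minus the mean of the 6 clones, for the 17 genes described by clone (y axis). Red is above and blue below the gene's mean, with the value in each cell. Cxcl1 runs from -0.40 to -0.26 in the control clones and from 0.30 to 0.34 in the FEAT clones, while Ccl2 spans -1.05 in FEAT 20 to 1.297 in FEAT 15.

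Other genes of these pathways were read from 4 further lists, also chosen with earlier results of these data known. Their counts stand beside 0.21% of all genes called and 10.2% at an unadjusted p under 0.05. Of 32 receptors of chemokines, cytokines and prostaglandin E2, 22 were tested and none passed (2 at an unadjusted p under 0.05). Of the tested, 19 were positive, against 51.7% of all genes, with a median log2 difference of 0.11. Only 9 of the receptors were above the limit on all 3 arrays of a group, so many of these signs rest on values near background. Osmr, the receptor subunit for oncostatin M, read 322 ± 32.8 in control and 556 ± 154 with FEAT (SD over 3 clones; log2 0.82, SE 0.21, adjusted p = 0.229), and its other 2 probes were below the limit on all arrays. The interleukin 4 receptor gene Il4ra was above the limit on no control array and on 2 FEAT arrays (log2 0.48, limma adjusted p = 0.416). Its FEAT mean was 1.09-fold the limit of the control arrays. That mean includes FEAT 20, which was below its own limit at 85.3, so no firm bound follows. Csf2ra and Cxcr4 were below the limit on all 6 arrays.

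Of 35 genes of the NF-kB pathway, 31 were tested and none passed (5 at an unadjusted p under 0.05), with 18 positive and 13 negative and a median of 0.07. Bcl3, an atypical IkB protein that binds p50 and p52, was above the limit on 2 FEAT arrays alone (log2 0.67, adjusted p = 0.242). Its FEAT mean was 1.18-fold the limit of the control arrays. That mean includes FEAT 3, which was below its own limit at 103.6, so no firm bound follows. The adaptor gene Traf2 read 98.6 ± 11.6 in control and 123 ± 6.80 in FEAT clones (SD, n = 3; log2 0.52, adjusted p = 0.267). Map3k14, the NF-kB-inducing kinase of the noncanonical branch, read 275 ± 24.2 and 370.4 ± 56.8 (log2 0.47, adjusted p = 0.387), and Irak2, a kinase of the interleukin 1 receptor, 494 ± 34.5 and 621 ± 31.8 (log2 0.33, adjusted p = 0.468), with 0.23 and 0.09 on its other probes.

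Of 35 further genes known as NF-kB targets, 23 were tested, and 1 rose and 0 fell, with a median of 0.016 and 7 at an unadjusted p under 0.05. The gene that rose was Ptx3, a secreted pentraxin, at 1018 ± 139 in control and 3596 ± 665 in FEAT clones (log2 1.83, adjusted p = 0.00266), with 1.81 on its other probe. Without control 1, no gene of the 4 lists passed, and without FEAT 20 the number was 2. Plau, the urokinase gene, had a log2 difference of 0.82 (adjusted p = 0.1505), Cflar, an inhibitor of caspase 8, of -0.50 (adjusted p = 0.384) and the cytokine gene Il15 of -0.47 (adjusted p = 0.428). The other tested Il15 probes gave -0.42 and -0.41.

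Of 29 other complement genes, 18 were tested and none passed (2 at an unadjusted p under 0.05), with 11 positive and 7 negative and a median of 0.024. Cd59a, which blocks the membrane attack complex, read 571 ± 114 in control and 420 ± 32.6 in FEAT clones (SD, n = 3; log2 -0.50, adjusted p = 0.397). Masp1, a protease of the lectin pathway, differed by 0.53 (adjusted p = 0.529), properdin, Cfp, by -0.32 (adjusted p = 0.567) and C1qtnf1 by 0.33 (adjusted p = 0.610). The other Masp1 probes gave 0.41 and, on a probe below the limit on all arrays, -0.0096.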

How the data were processed

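The list and the lists of related genes were chosen with earlier results of these data known. RNA was labelled with Cy3 after TotalPrep amplification, per the labels' protocols, and the submitters' processing notes name BeadStudio. The sources used here do not give its version, the array's build, the slide, the scan or the growth conditions. The authors deposited linear intensity values for each array, without detection p, and a value table of the series with the same intensity values times 1 factor per array (0.925 to 1.104). Background was not subtracted. The per-array values went through normexp fitted to the signals (offset 16), quantile normalization and log2, the fallback for neqc, and limma 3.58.1 in R 4.3.3 on the top 60% of probes by mean. Normexp draws dim probes apart. The background limit of an array was its mode of log2 intensity plus 3 SDs of the values below it. P-values set the difference between groups against the spread between clones, with a variance moderated over the probes tested. Where a group was below the limit on every array, the mean of the brighter group was set against the higher of that limit and the probe's own value. This ratio is no strict bound where the brighter group also has an array below its limit. The build being unknown, only promoter windows have coordinates. Genes described by clone were those above the limit on all 3 arrays of a group, and of each related list the 4 with the smallest p were named. Probes came with 1 gene (34885), several (18, not named) or none (10378). The fit was tested on simulated data.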

Additional observations from a re-analysis of the deposited data

How the results depend on the processing

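Of 255 values of the 17 genes described by clone under an alternative, 238 kept their sign and their side of the threshold, 6 passed the threshold where the reported value did not, and 11 changed sign, all 11 when a clone was left out. The range over the omissions was -0.81 to 0.35 for Ccl2, -0.039 to 0.62 for Ccl7, -0.42 to 0.0085 for Ccl9, -0.061 to 0.22 for Relb, -0.13 to 0.16 for Icam1 and -0.029 to 0.086 for C4b. Of the 29 genes tested, 1 was called without normexp, with an offset of 50, with the deposited value table and with a trended and robust variance (Cxcl1 each time), and 0 to 1 when a clone was left out (Vcam1 without control 2, Csf1 without FEAT 20). The list median was 0.048 with no filter, where 38 genes count, and 0.29 over the 17 genes above the background limit on 3 arrays of a group. Ptgs2 and Saa3 are among the 17 only through their FEAT arrays. On the same 29 genes it was 0.163 as reported, 0.095 without normexp, 0.102 with an offset of 50, 0.104 with the deposited value table and 0.097 without FEAT 15. Leaving out a clone moved the probes called, 46 in all, to between 0 and 152 (0 to 81 higher, 0 to 71 lower): 0 without control 1, 152 without control 2, 2 without control 3, 17 without FEAT 3, 16 without FEAT 15 and 60 without FEAT 20. It moved the genes of the list without overlap to between 5 and 10, and the related genes called to between 0 and 2. Trended and robust variance called 30 lower probes, against 16. The cause was not tested. No paired analysis was possible because the groups share only the number 3, which names a clone. Background limits the precision of the dim genes.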
